A study of Mus musculus with 8 samples.

Results

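The miR-17/miR-92 cluster and its paralogs were examined in ventral tissue of the lumbar spinal cord in 4 wild type and 4 MLC/SOD1[G93A] samples from mice, all of the FVB strain background and 4 months old. The transgenic mice overexpress mutant SOD1 under the muscle specific Myosin Light Chain promoter, and the study describes this expression as selective for skeletal muscle. Expression of the transgene in the profiled tissue was not measured here. The members were the card A assays for mmu-miR-17, mmu-miR-18a, mmu-miR-19a, mmu-miR-19b, mmu-miR-20a, mmu-miR-20b, mmu-miR-92a, mmu-miR-93, mmu-miR-106a and mmu-miR-106b, chosen by name and written without the species prefix from here on. All 10 were among the 375 miRNA assays of the TaqMan card, and each sample had 1 card.

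An assay gives a threshold cycle (Ct), the number of PCR cycles until the fluorescence passes a threshold, and 1 cycle less stands for about 1 doubling of the miRNA. Wells with no Ct, or with one over 35, counted as not measured. Log2 expression is a reference Ct minus the Ct of the miRNA in the same sample. Results are given relative to U6, the mean Ct of 4 wells of this small nuclear RNA, and on a second scale to the global mean, which averages the Ct of those 190 miRNAs that all 8 samples measured. A log2 change is the mean of the MLC/SOD1[G93A] samples minus the mean of the wild type samples. Wild type samples are numbered 1 to 4 and MLC/SOD1[G93A] samples 5a to 8a, as in the column names, and all permutation tests of genotype means were two-sided.

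These miRNAs are cut from polycistronic transcripts, in which several hairpins are transcribed together and processed one by one. Myc and E2F factors are known to activate the miR-17/miR-92 transcript, and its miRNAs restrain the pro-apoptotic Bim and cell cycle inhibitors. In the spinal cord the cluster is known to support the survival of limb-innervating motor neurons, and in the oligodendrocyte lineage it promotes expansion. The mature miRNAs are also abundant in blood and immune cells.

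In the RefSeq table for GRCm38.p6, all 10 members matched a mature miRNA. The files name no arm for them, and the arm shown is the usual guide strand of each hairpin. The mature sequences of the miR-17/miR-92 cluster span chr14:115043684-115044496 on the plus strand, those of the miR-106a-363 cluster chrX:52741697-52742563 on the minus strand, and those of the miR-106b-25 cluster chr5:138165332-138165807 on the minus strand. The miR-106b-25 sequences lie within Mcm7, which encodes a replication helicase subunit and is known to carry them in an intron. Within the miR-17/miR-92 span only miR-92a falls inside the annotated extent of Mir17hg, the noncoding host gene. Mature miR-19b and miR-92a are identical from chromosome 14 and chromosome X, so their values cannot be assigned to 1 cluster. The sequences are shown because the seed, bases 2 to 8 and in capitals here, sets the target families, and because some members differ by a single base.
miR-17: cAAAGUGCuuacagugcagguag
miR-20a: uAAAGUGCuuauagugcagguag
miR-106a: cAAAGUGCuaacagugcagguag
miR-20b: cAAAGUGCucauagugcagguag
miR-106b: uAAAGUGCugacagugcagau
miR-93: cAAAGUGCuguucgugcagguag
miR-18a: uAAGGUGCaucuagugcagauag
miR-19a: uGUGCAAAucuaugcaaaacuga
miR-19b: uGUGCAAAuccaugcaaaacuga
miR-92a: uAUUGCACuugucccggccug
miR-25: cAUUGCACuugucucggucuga

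The 10 members hold 4 seeds. The miR-17 seed is shared by 6 of them, the miR-19 seed by miR-19a and miR-19b, and miR-18a and miR-92a stand alone with theirs. The last sequence, miR-25, is no member of the list but lies in the miR-106b-25 cluster and carries the miR-92 seed. Counted from 1 at the 5′ end, miR-106a differs from miR-17 by U10A alone, 22 of 23 bases being identical, and miR-19b differs from miR-19a by U11C alone. Cross-reaction between such assays was not tested, so the values of miR-17 and miR-106a, and of miR-19a and miR-19b, may not be fully separate.

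Of the 375 miRNAs, 239 to 256 were measured per sample, and 227 were measured in at least 3 samples of each genotype and tested. Among the members 9 were tested, all of them measured in 8 of 8 samples. The tissue markers were present, with the neuronal miR-124 at a Ct of 26.58 to 27.99 and the motor neuron miR-218 at 23.47 to 24.16, while the liver marker miR-122 gave no Ct in any sample. The skeletal muscle marker miR-133a was also measured in every sample, at 23.44 to 24.98, and its source was not tested. The references did not move together. The U6 mean minus the global mean was -11.56 in wild type 1 and -11.81 in sample 7a against a range of -10.37 to -9.67 for the remaining 6. The 4 U6 wells of a sample spread over 0.42 to 0.78 cycles in wild type, over 0.39 and 1.05 in samples 5a and 6a, and over 2.14 and 1.97 in samples 7a and 8a. Values without single samples are given beside the members' changes or as a range over the members.

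By level, miR-19b was the most abundant member, with a mean Ct of 25.22 ± 0.63 (SD, n = 8), at rank 23 of the 190 miRNAs measured in all samples. Next came miR-17 at 26.78 ± 0.46 (SD, n = 8), which had the higher Ct of the pair in 8 of 8 samples. From miR-17 to miR-106b, which lay at 29.10 ± 0.61 (SD, n = 8), each neighbour in the order of mean Ct (miR-17, miR-106a, miR-20a, miR-92a, miR-93, miR-19a, miR-106b) changed places with the next in at least 1 sample. These neighbours differed by 0.22 to 0.56 cycles on average. The members at both ends stood apart from their neighbour in every sample. The first, miR-19b, lay 1.01 to 1.78 cycles below miR-17. The last, miR-20b, lay at 31.40 ± 1.11 (SD, n = 8), 1.10 to 4.00 cycles above miR-106b. The order is that of Ct values and includes the efficiency of each assay, which the files do not give.

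The remaining member, miR-18a, was near the limit of detection. Its Ct was undetermined in wild type 1 and 34.68, 32.98 and 34.39 in wild type 2, 3 and 4. In MLC/SOD1[G93A] samples it was 36.02 in 5a, undetermined in 6a, 33.50 in 7a and 32.96 in 8a. It was thus measured in 3 wild type and 2 MLC/SOD1[G93A] samples and was not tested. Relative to the global mean, miR-18a was -6.20, -4.87 and -6.37 in wild type 2, 3 and 4 and -4.81 and -4.69 in 7a and 8a. These measured values do not overlap, and their difference of 1.07 has the opposite sign to that of the members tested. Of the 227 miRNAs tested, 2.2% were higher on this scale with no overlap. The difference leaves out wild type 1, 5a and 6a, whose Ct was over 35 or undetermined. Such late or absent Ct values stand for low levels, so neither the sign nor the lack of overlap can be taken to hold for all 8 samples. Relative to U6 the difference was -0.06, with overlap. Its close relative from the X chromosome, miR-18b, gave no Ct in any sample.

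All 9 members tested had a lower mean in MLC/SOD1[G93A] samples on both scales, but none differed beyond the error after adjustment. Relative to U6 the log2 changes ran from -1.16 for miR-20b to -0.47 for miR-106b, with a median of -0.92 and a median standard error of 0.69. That median was -0.50 without sample 7a and -0.58 without wild type 3, and over all samples left out in turn it ran from -1.35 (without wild type 1) to -0.50. On the scale of the global mean they ran from -0.81 for miR-20b to -0.12 for miR-106b, with a median of -0.57, which ran from -0.66 to -0.45 over the samples left out, and a median standard error of 0.28. In limma with Benjamini-Hochberg adjustment over 227 miRNAs, 0 members had an adjusted p under 0.05 on either scale, where 0% of all miRNAs tested were called. The adjusted p of each member was 0.975 relative to U6 and 0.515 to 0.964 relative to the global mean.

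The share of negative changes depended on the reference for all miRNAs, members or not. Relative to U6, 77.5% of the 227 miRNAs had a log2 change below 0, and relative to the global mean 46.3% had. The median change of all 227 was -0.31 on the first scale and 0.04 on the second. The median of the members minus that of all miRNAs was -0.61 on either scale. Another reference shifts all miRNAs measured in every sample alike, so this difference is nearly the same on any scale by construction. All 9 members lay below the median of all miRNAs, where 49.8% of miRNAs lie by construction, and 8 of 9 did without sample 7a, miR-106b being the exception. With a Ct limit of 40, 10 members were tested, and 9 lay below that median relative to the global mean and 10 relative to U6. With the small RNA Y1 as the reference, 3 of the 9 members kept a change below 0 (miR-20a, miR-20b and miR-93) and the other 6 turned positive. The Ct of Y1 was itself higher in MLC/SOD1[G93A] samples, with a mean of 26.60 against 25.76 in wild type. The median change of all 227 miRNAs was then 0.64, so the turn was not particular to the members. All 9 members remained below the median of all miRNAs, a position that the choice of reference hardly affects by construction. The members share samples, transcripts and bases, so they are not independent of each other. In this bulk tissue, fewer cells of a type and less miRNA per cell cannot be told apart.

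**Figure D1:**
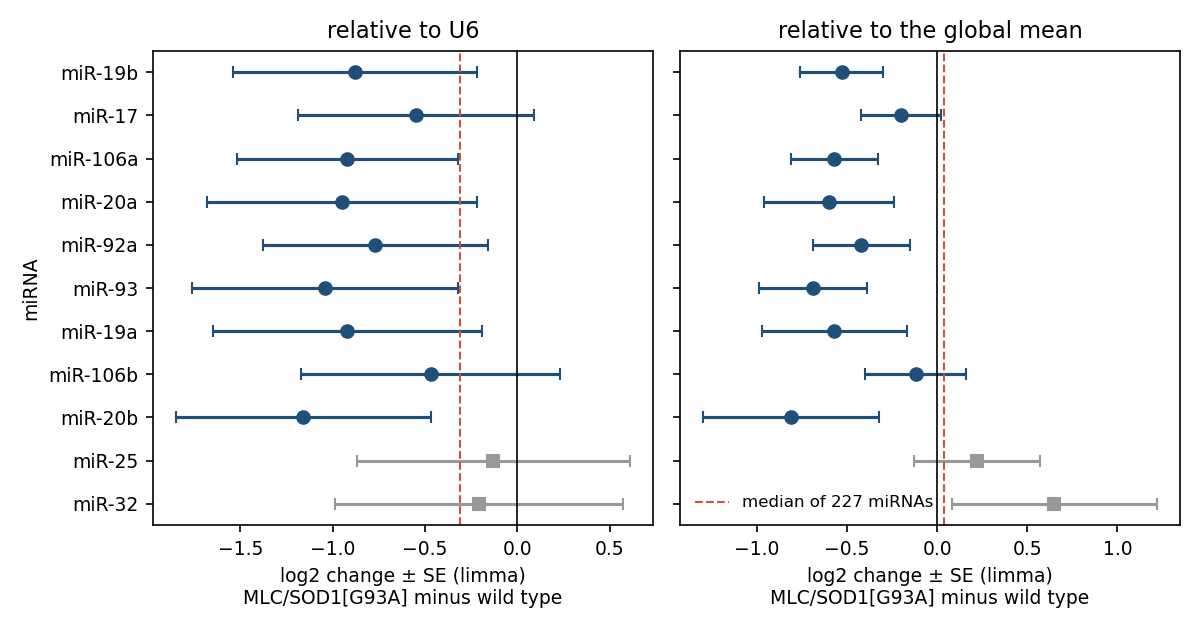
Log2 change with its standard error from limma (MLC/SOD1[G93A] minus wild type, x axis) of the 9 members tested (circles) and of the related miR-25 and miR-32 (squares), relative to U6 on the left and to the global mean on the right. Every member lies to the left of 0 and of the dashed line, the median of the 227 miRNAs tested, on both scales. With Y1 as the reference 6 of the 9 would lie to the right of 0, and the median of the 227 miRNAs at 0.64.

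At an unadjusted p under 0.05 in limma, 0 members were lower and 0 were higher relative to U6, beside 2.2% and 0.441% of all miRNAs. On the scale of the global mean 3 members were lower, miR-106a, miR-93 and miR-19b, against 5.73% of all miRNAs, and 0 were higher, against 3.52%. These counts moved with single samples, and so did those of all miRNAs. Relative to U6, 6 members were lower without wild type 1 (miR-19a, miR-19b, miR-20a, miR-106a, miR-20b and miR-93), where 15.9% of all miRNAs were lower as well. Without sample 8a 1 member was lower (miR-20b) beside 3.08% of all miRNAs, and without both wild type 1 and sample 7a 5 were lower beside 15% of all. On the other scale, 4 members were lower without wild type 1 beside 9.25% of all miRNAs, and 2 without sample 8a beside 4.85%. There was 1 without wild type 2, sample 5a or sample 7a, each beside 3.96% of all miRNAs. None was lower without wild type 3, wild type 4 or sample 6a, beside 3.08%, 3.52% and 4.41%. No adjusted p of a member was under 0.05 in any of these fits.

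Of the 9 members tested, only miR-106a, which has the miR-17 seed and lies on the X chromosome, had genotypes that did not overlap. Relative to the global mean its log2 expression was 1.83, 1.18, 1.36 and 1.54 in wild type 1 to 4 and 0.84, 0.58, 1.05 and 1.17 in samples 5a to 8a. The gap was narrow, since the lowest wild type and the highest MLC/SOD1[G93A] sample were 1.18 and 1.17. The means were 1.48 ± 0.28 (SD, n = 4) and 0.91 ± 0.26 (SD, n = 4), which gives a log2 change of -0.57 with a standard error of 0.24 (exact permutation p = 0.0286, the smallest possible with 4 samples a genotype). Of all 227 miRNAs, 2.2% were lower in this way with no overlap and 2.2% higher. Relative to U6 the genotypes overlapped for all 9 members, while 1.32% of all miRNAs were lower and 0.441% higher without overlap. On that scale miR-106a lay at -8.87 ± 0.68 (SD, n = 4) and -9.78 ± 0.70 (SD, n = 4), which is a change of -0.92 (exact permutation p = 0.114).

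The largest changes belonged to miR-20b, the neighbour of miR-106a on the X chromosome. In wild type samples it was steady relative to the global mean, at -2.44, -2.46, -2.28 and -2.67. In samples 5a to 8a it was -4.34, -3.93, -3.06 and -1.77. The first 3 of these lie below all wild type samples, while sample 8a lies above all of them. The means were -2.46 ± 0.16 (SD, n = 4) and -3.27 ± 1.14 (SD, n = 4), which gives a change of -0.81 with a standard error of 0.49 (exact permutation p = 0.257). Without sample 8a the change was -1.31 relative to the global mean (adjusted p = 0.157 from limma), and without sample 5a it was -0.45. Relative to U6 it was -1.16 with all samples and -1.79 without sample 8a.

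On chromosome 14, miR-17 and miR-20a carry the same seed. Against the global mean, miR-17 was 1.68, 1.79, 2.10 and 1.84 in wild type samples and 1.77, 1.77, 1.72 and 1.34 in samples 5a to 8a. The change was -0.20 with a standard error of 0.22 (exact permutation p = 0.229), and it was -0.10 without sample 8a, the lowest of all, and -0.12 without wild type 3, the highest. For miR-20a the values were 0.07, 0.70, 1.64 and 1.57 in wild type and 0.63, 0.11, 0.48 and 0.34 in MLC/SOD1[G93A] samples. Wild type 3 and 4 stood above all other samples, while wild type 1 was the lowest of all. The change of miR-20a was -0.60 with a standard error of 0.36 (exact permutation p = 0.229), and it ran from -0.91 without wild type 1 (adjusted p = 0.182 from limma) to -0.41 without wild type 4 and -0.39 without wild type 3.

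From the Mcm7 locus, miR-93 showed a larger difference than its neighbour miR-106b. For miR-93 the log2 expression against the global mean was -0.32, 0.47, 0.65 and 0.73 in wild type 1 to 4 and -0.15, -0.14, -0.83 and -0.13 in samples 5a to 8a. All wild type samples but the first lay above every MLC/SOD1[G93A] sample. The change was -0.69 with a standard error of 0.30 (exact permutation p = 0.114), and it ran from -0.93 without wild type 1 (adjusted p = 0.154 from limma) to -0.52 without sample 7a. For miR-106b the values were -0.94, -0.50, -0.50 and -0.09 in wild type and -0.34, -0.33, -1.18 and -0.67 in MLC/SOD1[G93A] samples. These interleave, and the change of miR-106b was -0.12 with a standard error of 0.28 (exact permutation p = 0.657). Its direction was not stable, since it turned to 0.06 without sample 7a and to 0.02 without wild type 4, and it was -0.26 without wild type 1.

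**Figure D2:**
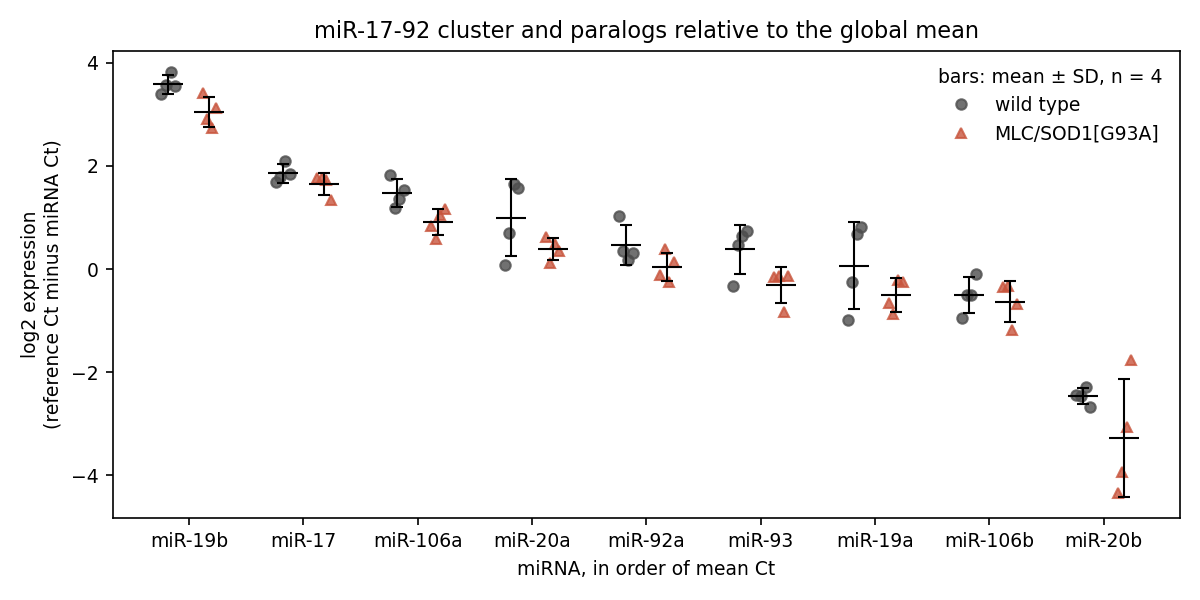
Log2 expression relative to the global mean (y axis, global mean Ct minus miRNA Ct) of the 9 members measured in all samples, with 1 point per sample and bars for the mean ± SD of 4 samples. The genotypes overlap for every member but miR-106a, where 1.18 and 1.17 meet, and miR-20b varies most among MLC/SOD1[G93A] samples.

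The miR-19 seed is known as the main tumour-promoting component of the cluster. The more abundant miR-19b was, against the global mean, 3.39, 3.56, 3.82 and 3.54 in wild type samples and 3.42, 2.90, 2.73 and 3.12 in samples 5a to 8a. Sample 5a lay just above the lowest wild type sample, and the other MLC/SOD1[G93A] samples lay below it. The means were 3.58 ± 0.18 (SD, n = 4) and 3.05 ± 0.30 (SD, n = 4), which gives a change of -0.53 with a standard error of 0.23 (exact permutation p = 0.0571). For miR-19a the values were -0.98, -0.25, 0.67 and 0.82 in wild type and -0.66, -0.88, -0.22 and -0.25 in MLC/SOD1[G93A] samples. The wild type samples differed from each other more than the genotypes did, and the change of miR-19a was -0.57 with a standard error of 0.40 (exact permutation p = 0.343). It ran from -0.91 without wild type 1 (adjusted p = 0.182 from limma) to -0.36 without wild type 3 and -0.31 without wild type 4.

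The single member with the miR-92 seed, miR-92a, is known for restraining the growth of blood vessels. Against the global mean it was 1.03, 0.34, 0.17 and 0.31 in wild type and -0.11, 0.38, -0.25 and 0.14 in MLC/SOD1[G93A] samples. Here wild type 1 was the highest sample, in contrast to miR-19a and miR-20a. The change of miR-92a was -0.42 with a standard error of 0.27 (exact permutation p = 0.171), and it was -0.23 without wild type 1 and -0.13 without both wild type 1 and sample 7a.

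Relative to U6 the samples ordered differently, and wild type 1 and sample 7a were the lowest of their genotype for all 9 members. For miR-93 the values were -11.87, -9.81, -9.02 and -9.14 in wild type and -10.43, -10.51, -12.64 and -10.44 in samples 5a to 8a, which gives a change of -1.04 with a standard error of 0.72 (exact permutation p = 0.314). For miR-19b they were -8.16, -6.72, -5.85 and -6.33 in wild type and -6.86, -7.47, -9.08 and -7.19 in samples 5a to 8a, which gives a change of -0.88 with a standard error of 0.66 (exact permutation p = 0.257). For both miRNAs, wild type 2, 3 and 4 lay above all MLC/SOD1[G93A] samples and wild type 1 among them. The other changes relative to U6 were -0.55 for miR-17, -0.95 for miR-20a, -0.92 for miR-19a, -0.77 for miR-92a and -0.47 for miR-106b, with standard errors of 0.61 to 0.73. Without sample 7a the change was -0.50 for miR-93 and -0.41 for miR-19b, and the 9 members ran from -0.86 (miR-20b) to 0.08 (miR-106b). Without wild type 1 it was -1.68 for miR-93 and -1.35 for miR-19b, and the members ran from -1.68 to -0.99 (miR-92a). They ran from -0.88 (miR-20b) to -0.24 (miR-106b) without wild type 3 and from -1.07 to -0.18 for the same miRNAs without wild type 4.

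**Figure D3:**
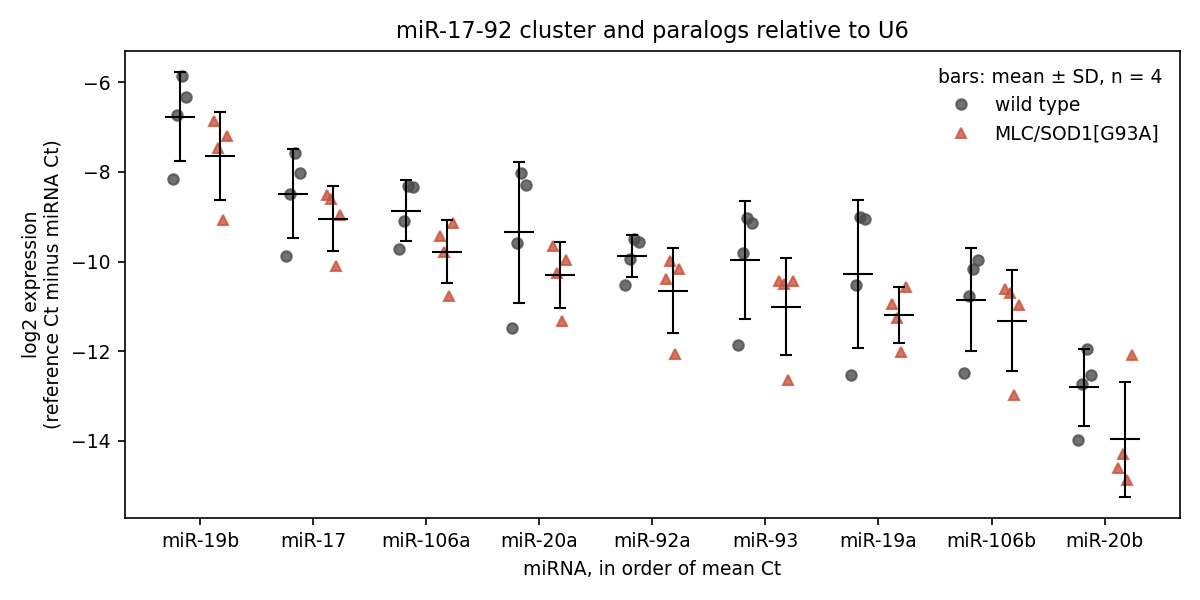
Log2 expression relative to U6 (y axis, mean U6 Ct minus miRNA Ct) of the same 9 members, with 1 point per sample and bars for the mean ± SD of 4 samples. The lowest point of each genotype is wild type 1 or sample 7a, and the genotypes overlap for every member.

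The seed families differed between genotypes by similar amounts, given here as a description with no test. Averaged over its members and relative to the global mean, the miR-17 seed family lay in wild type at 0.29 ± 0.25 (SD, n = 4) and in MLC/SOD1[G93A] at -0.21 ± 0.17 (SD, n = 4), which differ by -0.50. The difference was -0.55 for the miR-19 seed family and -0.42 for miR-92a. A ratio between families within a sample needs no reference. The log2 ratio of the miR-17 to the miR-19 seed family was for wild type -1.53 ± 0.24 (SD, n = 4) and for MLC/SOD1[G93A] -1.48 ± 0.15 (SD, n = 4), and the genotypes overlapped. That of the miR-17 seed family to miR-92a was -0.17 ± 0.62 (SD, n = 4) and -0.25 ± 0.30 (SD, n = 4).

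The ratios between the host clusters differed between genotypes by less than the spread between samples. With miR-19b and miR-92a set aside, the mean difference relative to the global mean was -0.46 for miR-17/miR-92 (miR-17, miR-19a and miR-20a), -0.69 for miR-106a-363 (miR-106a and miR-20b) and -0.41 for miR-106b-25 (miR-106b and miR-93). The log2 ratio of the first to the second cluster was for wild type 1.46 ± 0.66 (SD, n = 4) and for MLC/SOD1[G93A] 1.70 ± 0.67 (SD, n = 4). That of the first to the last was 1.03 ± 0.28 (SD, n = 4) and 0.98 ± 0.47 (SD, n = 4). Over all 9 members, the mean relative to the global mean was 0.37, 0.53, 0.85 and 0.84 in wild type 1 to 4 and 0.12, 0.06, 0.05 and 0.37 in samples 5a to 8a. The genotypes thus met at 0.37, with wild type 1 and sample 8a.

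The members' ratios to each other varied over a wide range. Over the 8 samples the SD of the log2 ratio of 2 members ran from 0.22 for miR-19a and miR-20a, neighbours on chromosome 14, to 1.02 for miR-20b and miR-106b. The median over the 36 pairs was 0.55, beside 0.68 over the 17955 pairs of all miRNAs measured in every sample. It was 0.49 for the 5 pairs within 1 cluster and 0.60 for the 16 pairs from different clusters, and it was 0.57 for pairs with the same seed and 0.50 for pairs with different seeds. These are descriptions, since pairs share miRNAs.

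For 1 of the 36 member pairs, a share of 2.78%, the genotypes did not overlap, beside 4.93% over all miRNA pairs, so the count itself is not a result about the members. That pair was miR-106b and miR-93, 2 hairpins of the same Mcm7 intron. The log2 ratio of miR-106b to miR-93 was -0.62, -0.97, -1.15 and -0.82 in wild type 1 to 4 and -0.19, -0.19, -0.35 and -0.54 in samples 5a to 8a. The means were -0.89 ± 0.22 (SD, n = 4) and -0.32 ± 0.17 (SD, n = 4), a difference of 0.57. The last hairpin of this cluster gave a similar picture. The log2 ratio of miR-93 to miR-25 was 3.94, 3.96, 4.14 and 3.65 in wild type and 2.63, 3.00, 3.13 and 3.29 in samples 5a to 8a, which differs by -0.91 with no overlap. That of miR-106b to miR-25 was 3.32, 2.99, 2.99 and 2.83 in wild type and 2.44, 2.81, 2.78 and 2.75 in samples 5a to 8a, which differs by -0.34, also with no overlap. These 3 ratios are built from 3 assays and were singled out after their values were seen.

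**Figure D4:**
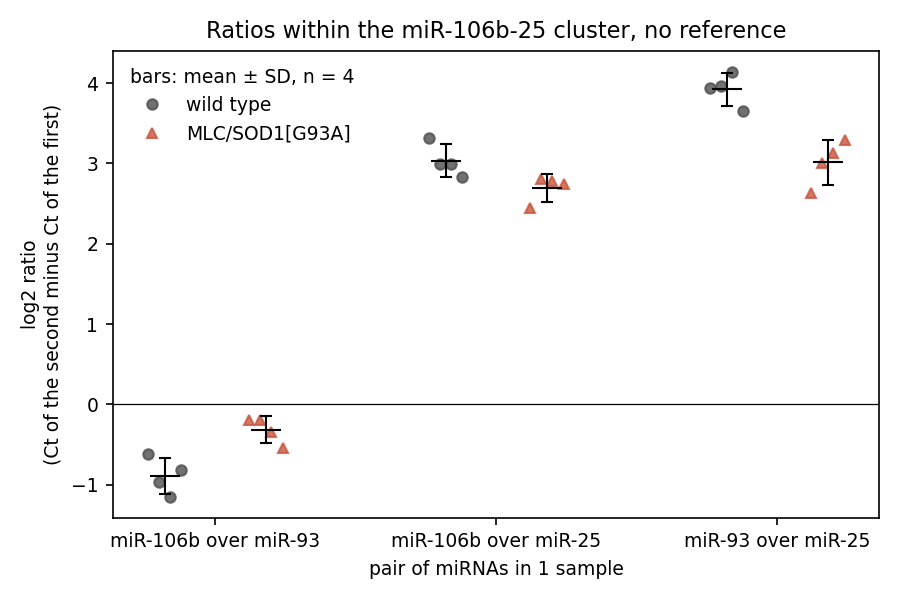
Log2 ratios (y axis, Ct of the second miRNA minus Ct of the first) between the 3 miRNAs of the miR-106b-25 cluster, with 1 point per sample and bars for the mean ± SD of 4 samples. In each ratio the wild type and MLC/SOD1[G93A] samples do not overlap, narrowly so for miR-106b to miR-25 (2.83 and 2.81). No reference enters the values, and each ratio follows from the other 2.

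Of the 16 related miRNAs (other hairpins and passenger strands of the 3 clusters, and other loci with a member's seed), 5 were found on the card under these names and 2 were tested, miR-25 and miR-32. Neither passed the test in either direction. The Ct of miR-25 was 33.26, 31.97, 31.60 and 30.94 in wild type and 31.56, 32.01, 32.65 and 31.69 in MLC/SOD1[G93A] samples. The fitted change was -0.13 on the U6 scale and 0.22 on that of the global mean, with standard errors of 0.74 and 0.35. For miR-32, which shares its seed with miR-92a from another locus, they were -0.21 and 0.65, with standard errors of 0.78 and 0.57 and 3 samples measured in each genotype. The others, miR-363 and miR-367, were measured in 1 and 2 samples. The rat assay for miR-17-3p, the opposite strand of the miR-17 hairpin, gave 34.87 cycles for sample 6a and 34.33 for sample 7a and was not measured in the other 6.

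The profile of the members over the 8 samples was most like that of miR-29b (Pearson r = 0.92), miR-223 (r = 0.87), miR-34a (r = 0.86), miR-451 (r = 0.84) and miR-130a (r = 0.80), out of 181 other miRNAs measured in all samples. Each r compares log2 expression relative to the mean Ct of the non-members with the mean over the 9 members in the same 8 cards, and the group difference enters it. Between 2 members the median r was 0.37, from -0.25 to 0.94, beside 0.00 between pairs of other miRNAs. The other miRNAs themselves form the reference, which holds their median r near 0, so the 2 medians cannot show that members vary together more. The correlation with the members' mean, of which each is part, was 0.88 for miR-93 and 0.28 for miR-92a. The cluster neighbour miR-25 ranked 69 with an r of 0.13.

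**Figure D5:**
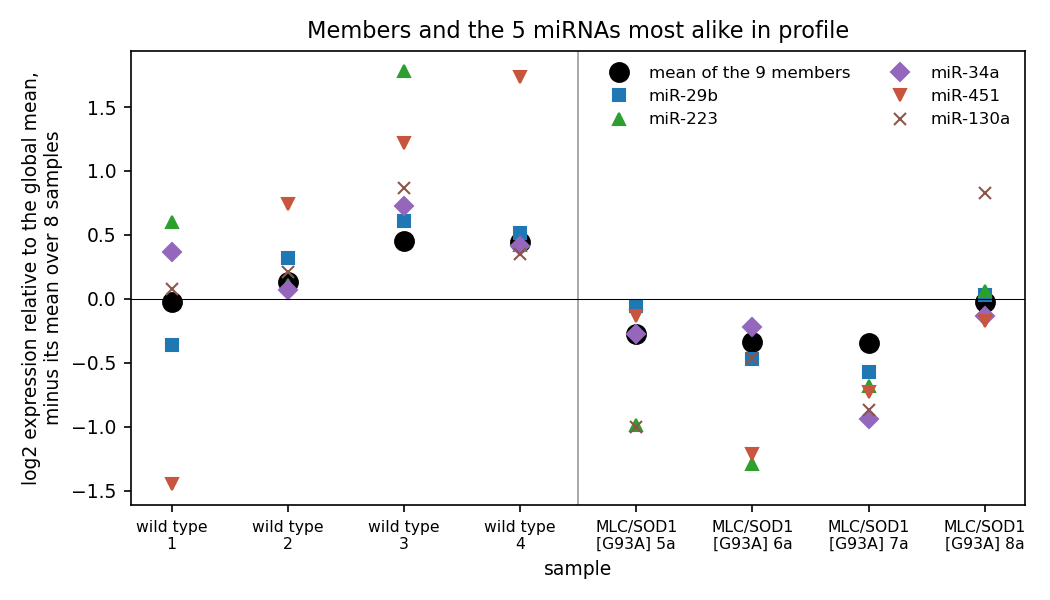
Log2 expression relative to the global mean in each of the 8 samples, minus its mean over the samples (y axis), for the mean of the 9 members and for the 5 other miRNAs with the highest correlation. Wild type 3 and 4 are high for all 6 profiles, and miR-451 is the lowest of them in wild type 1.

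Some of these miRNAs mark blood and immune cells, and their values are given beside the members. For miR-223, which marks myeloid cells, log2 expression relative to the global mean was 1.99, 1.50, 3.17 and 1.81 in wild type and 0.40, 0.10, 0.71 and 1.45 in MLC/SOD1[G93A] samples. Its change of -1.45 had a standard error of 0.42 and an adjusted p of 0.427 in limma, with no overlap of the genotypes (exact permutation p = 0.0286). Relative to U6 the change of miR-223 was -1.80 and the genotypes overlapped (exact permutation p = 0.0571). The other leukocyte and microglia markers tested did not share 1 direction. Relative to the global mean they changed by -0.61 for miR-142-3p, 0.14 for miR-155 and 0.20 for miR-150. For miR-451, which marks red blood cells, the values were -2.67, -0.48, 0.00 and 0.52 in wild type and -1.35, -2.43, -1.95 and -1.39 in samples 5a to 8a, and the change was -1.12 with a standard error of 0.62. On the scale of the global mean, all MLC/SOD1[G93A] samples were below all wild type samples for miR-223, and wild type 1 and sample 6a were the lowest for miR-451.

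Summed over each list, the markers did not separate the genotypes. All 5 leukocyte and microglia markers were on the card, and their summed expression, linear and relative to the global mean, was 13.6 to 25.7 in wild type and 14.5 to 18.4 in MLC/SOD1[G93A] samples. For the red blood cell markers, of which 2 of 3 were on the card, the sums were 4.58 to 10.9 and 3.98 to 8.92. For the 2 endothelial markers they were 79.8 to 148 and 82.3 to 119. The neuronal sums were 24.2 to 43.1 and 23.2 to 31.8, those of oligodendrocytes 73.3 to 213 and 126 to 183, and those of skeletal muscle 14.9 to 39.7 and 13.6 to 42.5. The abundant miR-150, miR-486 and miR-138 dominate the leukocyte, red blood cell and oligodendrocyte sums, with changes of 0.20, 0.09 and 0.44 relative to the global mean. The other oligodendrocyte markers went the other way, with -0.11 for miR-219 and -0.80 for miR-338-3p (adjusted p = 0.515 from limma), and the sum hides this. The leukocyte sum likewise hides that miR-223 and miR-142-3p were lower while miR-155 and miR-150 were higher. The part of blood and immune cells in the members' values was not tested.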

How the data were processed

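RNA from ventral lumbar cord was reverse transcribed (600 ng, Megaplex primers) and run by the authors on TaqMan mouse miRNA card A, with 1 card per sample and 4 samples per genotype. They deposited Ct values without normalization, a log2 table (Ct minus the mean of the 4 U6 wells, an alternative here) and their own fold changes between genotypes, which were not used. The deposited Ct table holds 100 miRNA values over 35, so no limit had been applied to it. The labels number the samples of a genotype but do not say that they are separate mice, so p-values measure the spread between samples.

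Here a Ct over 35 was treated as missing, and a miRNA was tested if each genotype had at least 3 measured samples. The genotype fit used limma 3.58.1 under R 4.3.3 (lmFit and eBayes, no covariates), with Benjamini-Hochberg adjustment over 227 miRNAs, and single miRNAs by exact permutation of the 70 assignments of samples. U6 and the global mean are both named in the methods of the study. The fit was tested on simulated data with independent noise and a larger change than any member showed. That check does not bear on its power for changes of the members' size. Arrays of this kind give no counts, so the number of cards limits precision. All members are named, with the related miRNAs and the 5 other miRNAs whose profile correlated best. Members, related miRNAs and marker lists were chosen with earlier results of these data known. Alternatives were other references, Ct limits of 32 and 40, other filters and tests, the normalized table and leaving out samples.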

Additional observations from a re-analysis of the deposited data

Results flagged for a closer look

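A sample was singled out where it stood apart from its genotype by most of that genotype's range (Dixon's test). This happened in 4 of 40 sets of 4 values, while about 5% are expected by chance, and the sets share samples and references. Sample 7a stood apart for both miRNAs of the Mcm7 locus. Its miR-93 log2 expression was -12.64 relative to U6 (other MLC/SOD1[G93A] samples -10.51 to -10.43) and -0.83 relative to the global mean (others -0.15 to -0.13). Its miR-106b log2 expression was -12.99 relative to U6 (others -10.98 to -10.62), and relative to the global mean it did not stand apart. Sample 8a did so for miR-17 relative to the global mean, at 1.34 (others 1.72 to 1.77).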

How the results depend on the processing

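No paired analysis was possible because the columns of the MLC/SOD1[G93A] samples bear numbers (5a to 8a) that match no replicate number in the titles. No alternative brought a member to an adjusted p under 0.05 in limma, the lowest being 0.118 on the U6 scale and 0.154 on the other. Of the changes of single members over the alternatives, 232 against U6 and 150 against the global mean kept direction, and 10 and 2 reversed. These counts include alternatives that cannot alter a log2 change, such as the other tests, so they overstate how stable the direction was. With Y1 the changes were 0.39 for miR-17, 0.02 for miR-19a, 0.06 for miR-19b, 0.17 for miR-92a, 0.02 for miR-106a and 0.47 for miR-106b, the median was 0.02 and 3 members lay below 0. The mean Ct of Y1 was higher by 0.84 in MLC/SOD1[G93A] samples (exact permutation p = 0.114), and the median of all 227 miRNAs was 0.64. With snoRNA135 miR-106b was 0.02, and with U6 well 4 alone miR-17 was 0.10 and miR-106b 0.18. With U87, whose Ct was 18.40 in sample 8a and 27.87 to 29.54 elsewhere, the median was -3.19. Leaving out 1 sample at a time, miR-106b ran from -1.02 to 0.08 relative to U6 (above 0 without sample 7a) and from -0.26 to 0.06 relative to the global mean (above 0 without sample 7a or wild type 4). The count of members lower at an unadjusted p under 0.05 in limma, 0 relative to U6, beside 2.2% of all miRNAs, was 3 with the global mean (5.73% of all), 6 with snoRNA202 (12.3%), 2 with no reference (5.29%), 7 with U6 well 1 alone (19.8%), 0 to 6 leaving out 1 sample (1.32% to 15.9%), and 5 without wild type 1 and sample 7a together (15%), a choice made after seeing the data. That relative to the global mean, 3 beside 5.73% of all, was 1 with the median Ct as reference (3.96%), 1 by the exact permutation test (2.2%), 1 by the exact Mann-Whitney test (1.76%) and 0 to 4 leaving out 1 sample (3.08% to 9.25%). Levels near a Ct of 35, as for miR-18a and miR-32, are the least certain, and the cause of these shifts was not tested.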
